A study of Mus musculus with 16 samples.

Results

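Choroid plexus markers were followed through the 16 V1 libraries of the study. The 9 genes Ttr, Kl, Folr1, Clic6, Aqp1, Kcnj13, Otx2, Sostdc1 and Kcne2 were taken by their symbols from the 53700 gene IDs of the count tables. All 9 were found and all 9 passed the filter on low counts, among 18669 genes tested. The libraries came from V1 (primary visual cortex) of adult C57BL/6J mice aged 7 to 9 weeks, with 4 mice in each of the groups CTR male, FR male, CTR female and FR female. CTR mice fed freely, and FR mice were food restricted for 2 to 3 weeks to 85% of baseline bodyweight. All 16 mice could eat until sated in the 1 to 2 hours before the tissue was taken, so that the groups differed in longer-term restriction. Each mouse gave 1 library, named here by its group and the number in its label. The cohort of each mouse was not given in the sources used here.

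The choroid plexus is a folded sheet of epithelium around a vascular core that hangs in the ventricles of the brain. Its epithelial cells secrete cerebrospinal fluid (CSF), form the barrier between blood and CSF, and release transthyretin, the carrier of thyroid hormone, at a very high level. The plexus is no part of the neocortex, which in the posterior brain lies above the hippocampus and the lateral ventricle. In these bulk samples, fewer cells of a type and less RNA per cell cannot be told apart.

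Each library held 33110029 to 41702296 counts, and levels are given as CPM, the gene's share of a library's counts, scaled between libraries by edgeR's TMM (trimmed mean of M-values). At this depth 3 counts, taken as the floor, were worth 0.0725 to 0.0946 CPM. Floors and the intervals of ratios between libraries cover counting error only, while the intervals of fitted changes also hold the spread between mice. The labelled tissue was checked against 12 markers of cortical excitatory neurons, and all were detected in each library, for example Slc17a7, the vesicular glutamate transporter of these cells, at 1124 to 1480 CPM. The sex labels matched the sex-linked genes in 16 of 16 libraries. A gene ID of chromosome 17 without a symbol took over 4% of the counts in 4 libraries, which lay at both ends of the Ttr range, CTR female 7 at 1.75 CPM, FR male 2 at 13.7 CPM, CTR female 8 at 651 CPM and FR female 2 at 811 CPM.

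The plexus markers differed more between mice of the same group than between CTR and FR mice. Ttr, which encodes transthyretin, spanned 52 to 31045 counts and 1.34 to 811 CPM over the 16 mice, a ratio of 607. None of the 9 genes passed the test for food restriction in either sex, where 2.38% of all genes did in males and 1.23% in females. Their fitted changes were smaller than the SD between mice of a group for each gene in both sexes. Differences within groups also made up most of the sum of squares over all genes, at a median of 71.0%, beside 95.8% for the 9 genes. Most of the 9 genes varied closely together from mouse to mouse. Kcnj13 (r = 0.74 with Ttr) and Otx2 (r = 0.64) went with them less closely.

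Ttr (ENSMUSG00000061808, GRCm39 chr18:20798337-20807378, plus strand) had the highest level for its length of the 9 genes, with a median of 51.1 CPM per kb of exon against 0.247 (Aqp1) to 0.974 (Kl) for the others. In CTR males 5, 6, 7 and 8 its level was 262, 1.34, 108 and 99.2 CPM. In FR males 1, 2, 3 and 4 it was 325, 13.7, 639 and 7.63 CPM. Both male groups thus held low mice, and the highest mouse reached 262 CPM in CTR males and 639 CPM in FR males. In CTR females 5, 6, 7 and 8 the level was 638, 18.7, 1.75 and 651 CPM. In FR females 1, 2, 3 and 4 it was 4.03, 811, 22.0 and 14.2 CPM. Each of the 4 groups covered a wide range, with a ratio of the highest to the lowest mouse of 196 (CTR male), 83.8 (FR male), 372 (CTR female) and 201 (FR female). Ordered by their means, CTR females (327 ± 366 CPM, SD, n = 4) came before FR males (246 ± 301), FR females (213 ± 399) and CTR males (118 ± 108), and no neighbours in this order differed beyond their SD.

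Kl and Sostdc1 encode further proteins of the set that cells release or shed. Kl (ENSMUSG00000058488, chr5:150876072-150917282, plus strand) encodes klotho, a co-receptor for FGF23 that is also shed into the CSF. It was detected in every library, at 2.83 CPM (FR male 2) to 21.7 CPM (CTR female 5), a ratio of 7.66 and the narrowest of the 9. Its 4 CTR males lay close together at 6.83 to 10.7 CPM (9.35 ± 1.74, SD, n = 4), whereas CTR females ran from 3.22 to 21.7 CPM (11.4 ± 8.77). Sostdc1 (ENSMUSG00000036169, chr12:36364138-36368451, plus strand) encodes a secreted antagonist of BMP and Wnt signals. It was detected in every library at 0.642 CPM (CTR male 6) to 5.56 CPM (FR female 2), a ratio of 8.67. In FR females 1, 3 and 4 Sostdc1 lay at 1.33, 1.01 and 1.25 CPM, and FR female 2 stood apart at 5.56 CPM.

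Folr1 (ENSMUSG00000001827, chr7:101507538-101519995, minus strand) encodes the folate receptor that carries folate across the plexus into the CSF. It ran from 2 counts in CTR female 7 to 222 counts in CTR female 5, a ratio of 94.1 with a counting interval of 25.7 to 782 (95%, exact binomial). Those extremes both came from CTR females, at 0.0625 and 5.88 CPM. Within FR females the ratio was 70.6 (23.8 to 345), from 3 to 196 counts. Within CTR males and FR males it was 13.5 and 12.7. Aqp1 (ENSMUSG00000004655, chr6:55313417-55325540, plus strand) encodes the water channel of the apical membrane, and it had the lowest level for its length. It lay between 0.334 CPM (CTR male 6) and 4.95 CPM (CTR female 5), a ratio of 14.8. In FR females 1, 3 and 4 Aqp1 lay at 0.459, 0.410 and 0.459 CPM, and FR female 2 was at 3.81 CPM.

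Clic6 (ENSMUSG00000022949, chr16:92282624-92338131, plus strand) encodes a member of the chloride intracellular channel family, and of all members it followed Ttr most closely. It lay at 4.78, 0.180, 2.56 and 2.79 CPM in CTR males 5 to 8 and at 5.38, 0.972, 10.5 and 1.07 CPM in FR males 1 to 4. In CTR females 5 to 8 it lay at 13.95, 1.25, 0.344 and 9.83 CPM and in FR females 1 to 4 at 0.459, 11.8, 1.34 and 1.33 CPM. The mice high in Clic6 were the mice high in Ttr, and the ratio of the highest to the lowest library was 77.6.

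Kcne2 and Kcnj13 encode parts of potassium channels. Kcne2 (ENSMUSG00000039672, chr16:92089277-92095017, plus strand) encodes an accessory subunit that assembles with KCNQ1 in the plexus. Kcnq1 itself reached at most 15 counts in a library and was not tested. Kcne2 lay at 2.85, 0, 1.25 and 1.22 CPM in CTR males 5 to 8 and at 3.43, 0.118, 7.93 and 0.0946 CPM in FR males 1 to 4. In CTR females 5 to 8 it lay at 5.35, 0.397, 0 and 11.1 CPM and in FR females 1 to 4 at 0, 9.14, 0.328 and 0.0765 CPM. It had no count in 3 libraries (CTR male 6, CTR female 7 and FR female 1), and each of these was also the lowest of its group in Ttr. Against the floor of 3 counts in the library at 0, the highest mouse of the group was at least 37.0-fold higher in CTR males, at least 118-fold higher in CTR females and at least 126-fold higher in FR females. In FR males the ratio was 83.8 (28.4 to 409), from 3 to 327 counts. Kcne2 and Clic6 lie close to each other on chromosome 16, and 2 genes between them, Smim11 and Rcan1, moved little, at 7.13 to 11.2 CPM and 59.5 to 78.6 CPM, while Kcne1 reached at most 4 counts and was not tested.

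Kcnj13 (ENSMUSG00000079436, chr1:87314085-87322451, minus strand) encodes the inwardly rectifying channel Kir7.1 of the apical membrane. It ran from 3 counts (CTR male 6) to 84 counts (CTR female 5), a ratio of 28.9 (9.55 to 143). Its highest mouse was CTR female 5 at 2.22 CPM, and FR male 4, whose Ttr was at 7.63 CPM, held 1.23 CPM. The gene lies inside Gigyf2 on the other strand, and 623 of its 1270 exonic bases are also exon of Gigyf2. The counting took no account of strand and left out reads that fell on more than 1 gene, so that Kcnj13 was counted on the remaining bases and reads of the other strand there cannot be told apart. Gigyf2 was at 59.7 to 72.0 CPM in all libraries, and its r with Ttr was 0.22. Kcnj13 values are less certain than those of the other members for this reason.

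Otx2 (ENSMUSG00000021848, chr14:48895134-48911276, minus strand) encodes a homeodomain transcription factor that the adult plexus makes and exports, and that parts of the diencephalon and midbrain also express. It lay at 1.43, 1.28, 4.09 and 2.24 CPM in CTR males 5 to 8 and at 2.47, 7.45, 3.47 and 0.347 CPM in FR males 1 to 4. In CTR females 5 to 8 it lay at 4.02, 0.369, 0 and 3.23 CPM and in FR females 1 to 4 at 0.145, 6.61, 2.00 and 5.05 CPM. Its highest library was FR male 2, in which Ttr was at 13.7 CPM, and FR female 4 held 5.05 CPM of Otx2 beside 14.2 CPM of Ttr. The ratio of Ttr to Otx2 thus ran from 1.04 (CTR male 6) to 202 (CTR female 8) over the 15 libraries with any Otx2 count. Within CTR females Otx2 was at least 42.9-fold higher in the highest mouse than in the mouse at 0, against the floor. The antisense gene Otx2os1 shares 154 of 4221 exonic bases with Otx2 and reached at most 14 counts.

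**Figure D1:**
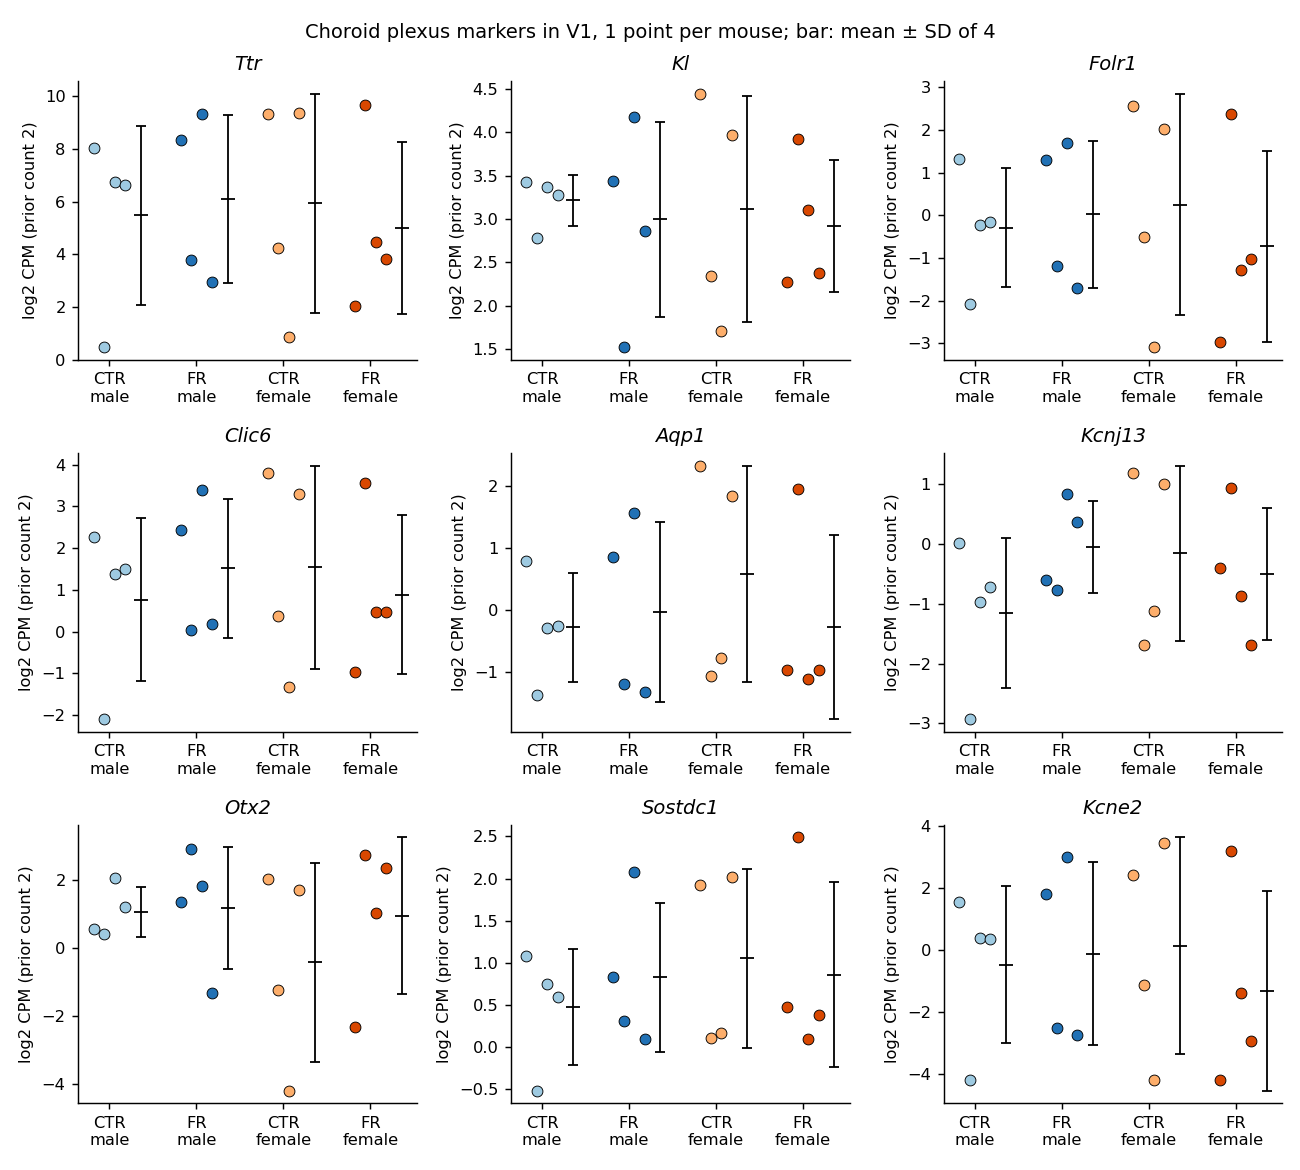
Level of each of the 9 genes in each mouse by group, on the y axis as log2 CPM with a prior count of 2 (1 point per mouse, bars mean ± SD of 4 mice, y scale set per gene). Levels differed between mice of the same group, and the CTR and FR ranges overlapped for each gene in both sexes. The lowest Kcne2 and Otx2 points are the libraries with 0 counts, whose height is set by the prior count.

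The sequence upstream of the members' starts is shown for 3 genes, 1 with the core site of OTX factors, 1 with a TATA box and 1 with neither. The RefSeq promoter table for GRCm38.p6, an older build than the GRCm39 of the counts, held 5 of the 9 members (Kcnj13, Kl, Aqp1, Otx2 and Kcne2), with several starts for Otx2 and Kcne2. It held no entry for Ttr, Folr1, Clic6 and Sostdc1. The 250 bases before a start are printed from 5′ to 3′ on the gene's strand, with motif letters in capitals. The letters searched were TAATCC, the core bound by OTX factors, which reads GGATTA from the other strand, and TATAAA, which reads TTTATA from the other strand. The motifs did not overlap each other in these windows.
Otx2, chr14:48665110-48665359, minus strand: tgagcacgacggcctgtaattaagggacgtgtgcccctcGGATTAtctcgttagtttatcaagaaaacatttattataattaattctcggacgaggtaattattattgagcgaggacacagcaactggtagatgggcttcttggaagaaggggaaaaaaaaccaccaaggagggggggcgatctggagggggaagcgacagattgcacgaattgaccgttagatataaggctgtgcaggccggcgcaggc
Kcnj13, chr1:87394730-87394979, minus strand: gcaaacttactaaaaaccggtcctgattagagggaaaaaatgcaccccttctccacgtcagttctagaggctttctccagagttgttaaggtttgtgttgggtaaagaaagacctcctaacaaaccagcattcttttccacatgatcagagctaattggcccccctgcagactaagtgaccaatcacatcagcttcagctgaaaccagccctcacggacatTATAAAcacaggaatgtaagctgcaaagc
Kcne2, chr16:92292139-92292388, plus strand: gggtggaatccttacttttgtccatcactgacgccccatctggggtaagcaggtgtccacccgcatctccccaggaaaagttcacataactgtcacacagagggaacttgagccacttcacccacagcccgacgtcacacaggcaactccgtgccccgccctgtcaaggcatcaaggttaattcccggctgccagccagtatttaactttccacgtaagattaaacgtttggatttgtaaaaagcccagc
TAATCC or its reverse stood in 1 of the 9 member windows, that of the Otx2 start printed here, and in 6.25% of all 32851 windows of the same length. TATAAA or its reverse stood in 2 of the 9 member windows (Kcnj13 and another start of Otx2) and in 12.4% of all windows. Motif matches are a description of letters, and binding was not measured.

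The same libraries were high in nearly all members. FR female 2 was among the 4 highest libraries for 9 of 9 genes, and CTR female 5, CTR female 8 and FR male 3 were for 8 of 9. CTR female 7 and CTR male 6 were among the 4 lowest for 7 of 9 genes and FR female 1 for 6. These high and low libraries came from different groups, with 3 of the 4 groups holding at least 1 of the high libraries and 3 holding 1 of the low ones. The summed level of the 9 genes ran from 7.37 to 705 CPM in CTR females, 10.9 to 289 CPM in CTR males, 11.98 to 870 CPM in FR females and 19.2 to 691 CPM in FR males, and Ttr made up most of each high sum.

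**Figure D2:**
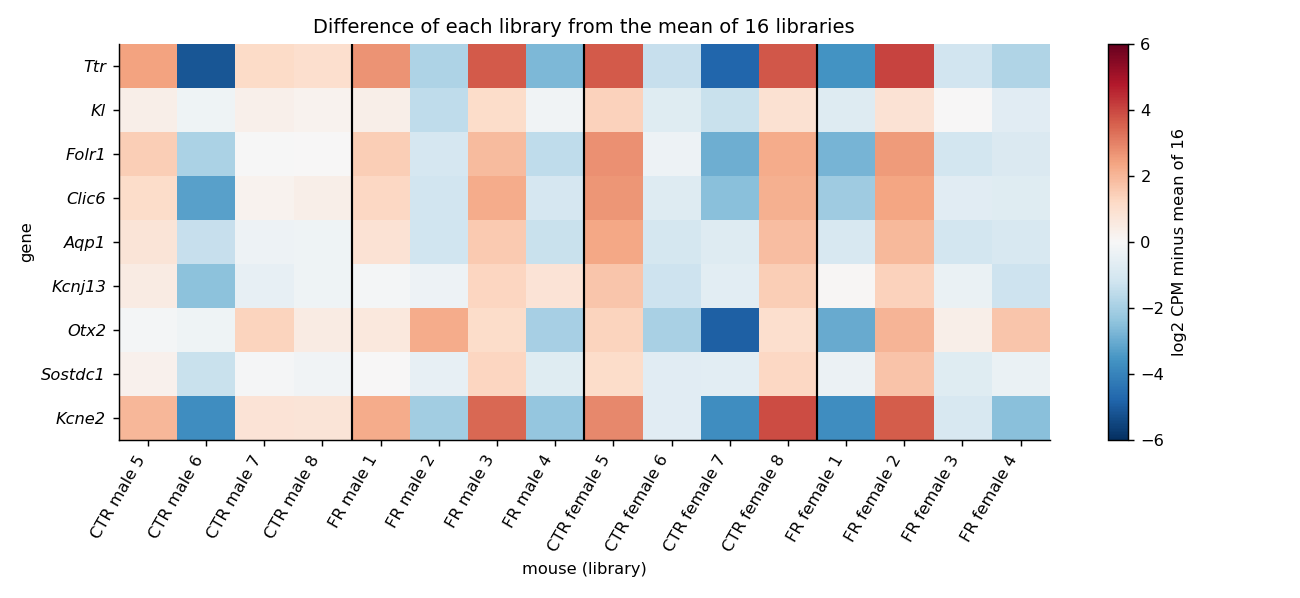
Difference of each library's log2 CPM from the gene's mean over 16 libraries, for the 9 genes (y axis) and the 16 mice (x axis, black lines between groups, colour scale in log2 units). Columns are mostly of 1 colour, red in FR female 2, CTR female 5, CTR female 8 and FR male 3 and blue in CTR male 6, CTR female 7 and FR female 1, and Otx2 breaks the pattern in FR male 2 and FR female 4.

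The co-variation was measured against Ttr over the 16 libraries, with log2 CPM, a two-sided permutation test of 100000 resamples and Benjamini-Hochberg adjustment over the 8 pairs. The smallest p that these permutations can give is 1e-05. Clic6 went with Ttr at r = 0.99 (rho 0.97), Kcne2 at r = 0.99 (rho 0.98) and Folr1 at r = 0.97 (rho 0.95), each with an adjusted permutation p of 2e-05. Aqp1 followed with r = 0.90 (rho 0.86), Sostdc1 with r = 0.89 (rho 0.89), Kl with r = 0.85 (rho 0.88) and Kcnj13 with r = 0.74 (rho 0.70, adjusted permutation p = 0.00144 for r). Otx2 had the lowest value of the 8, r = 0.64 (rho 0.57, adjusted permutation p = 0.00647 for r and 0.0237 for rho). All 8 relations thus passed over all mice, but they were not equally close.

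Without the 2 libraries farthest from the median of Ttr (CTR male 6 and CTR female 7) r was 0.57 to 0.99, and on residuals from the group means it was 0.70 to 0.99, so that the relation also stood within groups. Leaving out any 1 library left r at 0.545 to 0.726 for Otx2 and at 0.664 or more for the 7 other genes. The Ttr levels had a gap of 2.17 log2 units between 22.0 and 99.2 CPM, with 8 libraries on each side. Among the 8 libraries below the gap Clic6 (r = 0.96), Kcne2 (0.90) and Folr1 (0.82) followed Ttr closely, and r was 0.54 for Otx2, 0.47 for Sostdc1, 0.30 for Kcnj13, 0.14 for Kl and -0.03 for Aqp1. Among the 8 above it r was 0.84 to 0.98 for 7 genes and 0.45 for Otx2. Each side covers only part of the Ttr range. Counts below the gap were as low as 11 for Aqp1 (FR male 4) and 3 for Kcnj13 (CTR male 6). A low r there thus does not show a relation of another form. In pairs of members the 28 pairs without Otx2 had r of 0.66 to 0.99 (median 0.87), and the 8 pairs with Otx2 had r of 0.25 to 0.66 (median 0.55), as a description without a test of the difference.

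**Figure D3:**
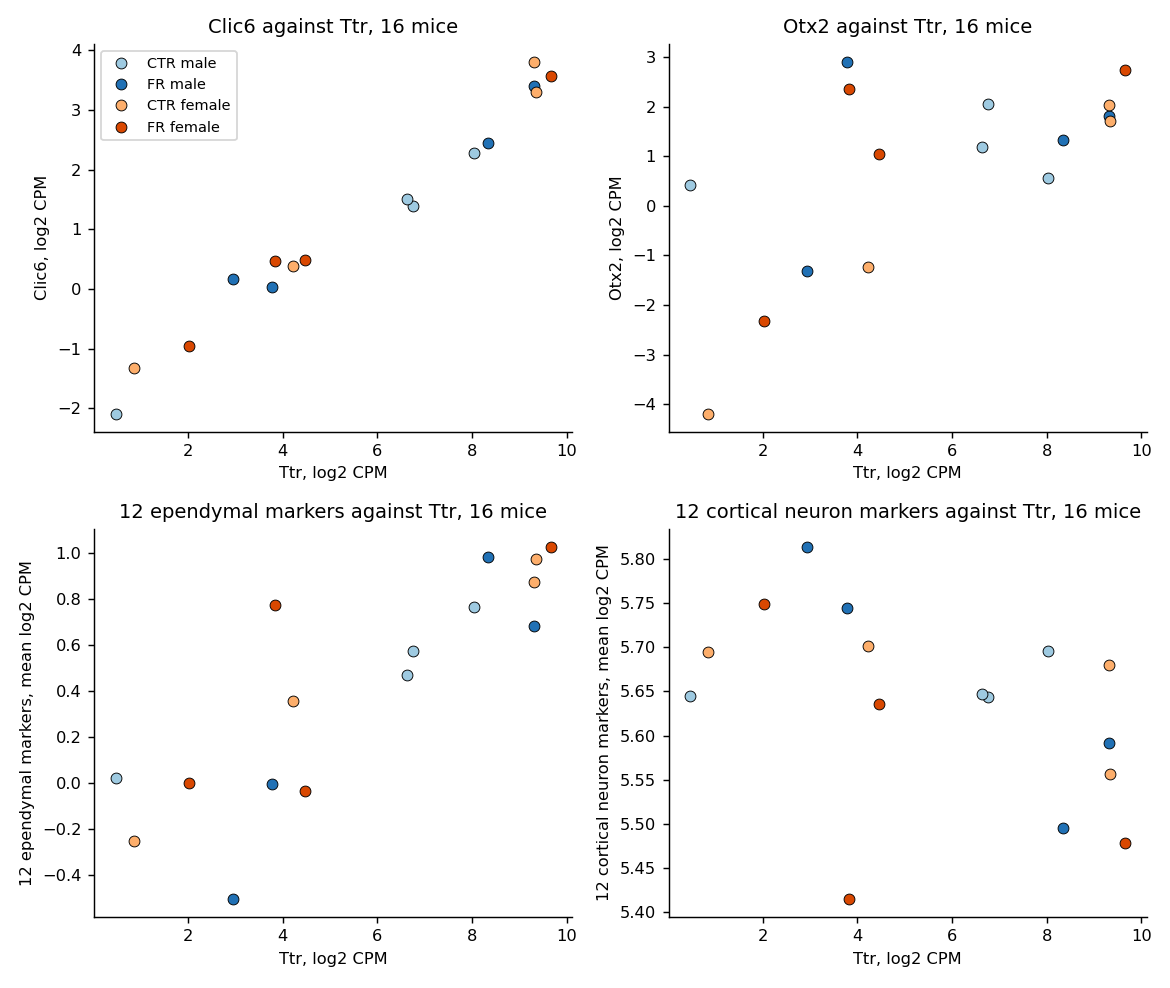
Clic6, Otx2 and the mean log2 CPM of 12 ependymal and 12 cortical neuron markers (y axes) against Ttr (x axis, log2 CPM) in 16 mice coloured by group. Clic6 rises steadily with Ttr (r = 0.99), Otx2 scatters (r = 0.64) and the ependymal mean rises (r = 0.85). The cortical neuron mean slopes down without passing the test of r (r = -0.44, rho = -0.56).

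For each gene the spread within groups was taken as the SD of log2 CPM pooled over the 4 groups. It was 3.53 for Ttr and 3.08 for Kcne2, the first and second of the 18669 genes tested. Otx2 (2.09), Folr1 (2.04) and Clic6 (2.01) were in places 9, 11 and 12, and Aqp1 (1.42), Kcnj13 (1.17), Sostdc1 (0.95) and Kl (0.95) in places 37, 62, 117 and 118. Over all genes tested the median SD was 0.16 and the 99th percentile 0.83, so that all 9 members lay above that percentile. With a prior count of 0.5 in place of 2 the SD of Kcne2 became 3.78 and that of Otx2 2.48, since these genes have libraries at 0, while Ttr stayed at 3.54. Differences within groups made up 84.7% (Kcnj13) to 98.2% (Kl) of the sum of squares of the 9 genes, against a median of 71.0% over all genes. The other genes in the first 10 places were Shox2, Tmem72, Pax7, Barhl1, Prr32, Slc4a5 and Pou4f1.

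The question whether food restriction changed the plexus markers was asked in each sex with edgeR's quasi-likelihood test on the counts of all 16 libraries. A gene was called at an adjusted p of 0.1 or less (Benjamini-Hochberg over the genes tested). In males 0 of the 9 members were called, where 2.38% of all genes were, and none had an unadjusted p under 0.05. The fitted log2 fold changes of FR over CTR males were all above 0, from 0.06 (Kl, SE 0.52) to 1.15 (Kcne2, SE 1.38), with a median of 0.62 beside -0.01 over all genes. Ttr had 1.07 (SE 1.59, 95% interval -2.27 to 4.40, edgeR adjusted p = 0.772). Kcnj13 had the smallest p of the 9 (log2 fold change 1.01, SE 0.70, edgeR adjusted p = 0.484). In units of the SD within groups these changes were 0.0649 (Kl) to 0.860 (Kcnj13).

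In females 0 of the 9 members were called, where 1.23% of all genes were, and none had an unadjusted p under 0.05. The fitted change was below 0 for 8 genes, down to -0.89 for Aqp1 (SE 0.81, edgeR adjusted p = 0.707), and above 0 for Otx2, at 0.84 (SE 0.88, edgeR adjusted p = 0.757). The median was -0.62 beside 0.00 over all genes. Ttr had -0.62 (SE 1.57, 95% interval -3.92 to 2.68, edgeR adjusted p = 0.916). In units of the SD within groups the changes were 0.114 (Sostdc1) to 0.623 (Aqp1). DESeq2 and limma voom with sample quality weights also called 0 of 9 in each sex. The direction in females turned with voom, where 7 of the 8 genes that edgeR put below 0 came out above it, Ttr among them at 0.90.

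**Figure D4:**
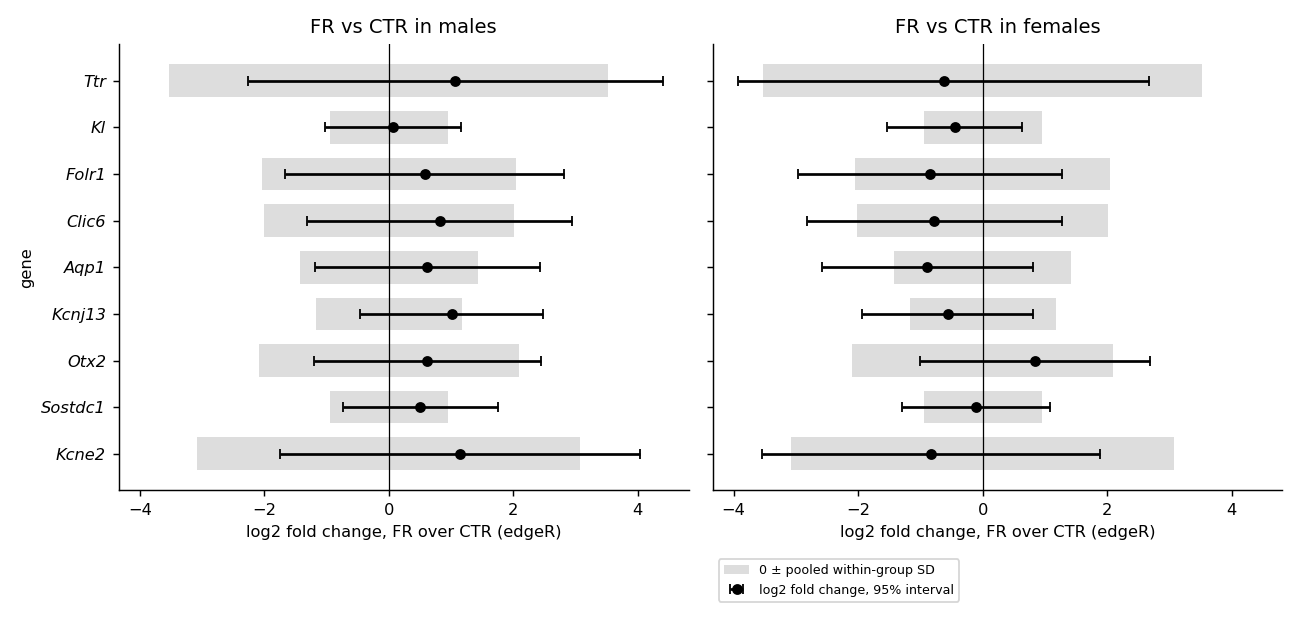
Fitted log2 fold change of FR over CTR (x axis, points with 95% intervals, edgeR) for the 9 genes (y axis) in males and females, over a grey bar of 0 ± the pooled SD within groups of log2 CPM. Each point lies inside its grey bar and each interval crosses 0.

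The intervals were wide, so that changes of several fold in either direction could not be told from none. In males the 95% intervals of the 9 genes reached from -2.27 to 4.40, and in females from -3.92 to 2.68 on the log2 scale. Kl, the least variable, had -1.03 to 1.15 in males and -1.54 to 0.64 in females. An exact two-sided permutation test of the log2 CPM of 4 against 4 mice, whose smallest possible p is 0.0286, gave p of 0.171 to 0.971 over the 9 genes in males and 0.371 to 0.943 in females. The CTR and FR ranges overlapped for all 9 genes in both sexes, where 8.63% of all genes had ranges that did not overlap in males and 7.56% in females. The difference of group means on that scale was smaller than the fitted change for some genes, as for Kcne2 in males (0.36), and larger for others, as for Kcne2 in females (-1.47) and Otx2 in females (1.37), and for Kl in males it had the other sign (-0.22).

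Single mice set the size and at times the sign of the fitted changes. Without FR male 3 the change of Ttr in males was -0.03, and without CTR male 5 it was 1.83. In females it was -4.62 without FR female 2 and -0.05 without CTR female 8. Leaving out FR male 3 took the median of the 9 genes in males from 0.62 to -0.06, and leaving out CTR male 5 took it to 1.32. In females the median went from -0.62 to -2.41 without FR female 2 and to -0.07 without CTR female 5. None of the 9 genes was called in any of these fits.

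**Figure D5:**
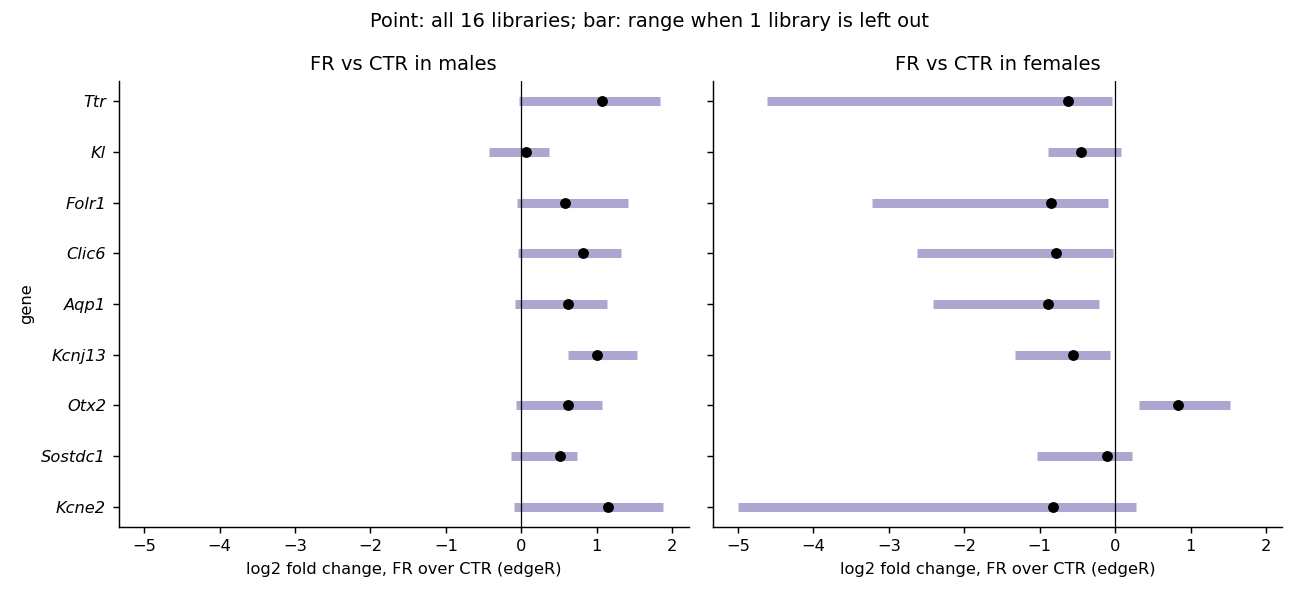
Fitted log2 fold change of FR over CTR (x axis, edgeR) for the 9 genes (y axis) with all 16 libraries (points) and its range when each library was left out in turn (bars). The bars of 8 genes in males and of Kl, Sostdc1 and Kcne2 in females cross 0, and those of Ttr and Kcne2 in females reach to -4.62 and -4.99.

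The difference between the sexes in the response to restriction was tested as an interaction, and 0 of the 9 members were called, where 0% of all genes were. Over all genes 973 had an unadjusted p under 0.05 in that test, of which none was a member, and DESeq2 called 18 genes and no member. The fitted difference, males minus females, was above 0 for 8 genes, at 1.69 for Ttr (SE 2.23, edgeR adjusted p = 0.920) and 1.97 for Kcne2 (SE 1.89, edgeR adjusted p = 0.900), and -0.22 for Otx2 (SE 1.24). Between CTR males and CTR females 0 of 9 were called, where 2.41% of all genes were, with fitted changes of -1.65 (Kcne2) to 0.22 (Otx2). That of Kcnj13 (-1.25) was larger than its SD within groups (1.17), and that of Aqp1 (-1.40) was close to its SD (1.42). Between FR males and FR females 0 of 9 were called, where 1.74% of all genes were, with fitted changes of -0.16 (Sostdc1) to 0.32 (Kcne2 and Kcnj13). None of the 9 had an unadjusted p under 0.05 in either of these comparisons.

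The members were then set beside further genes of the plexus. In a list of 28 other genes of plexus epithelium 25 were tested, and 0 rose and 0 fell with restriction in either sex. Their median log2 fold change was 0.43 in males and -0.46 in females. The mean log2 CPM of this list went with Ttr at r = 0.96 (rho 0.98, adjusted permutation p = 1.1e-04 over 11 lists), and at 0.97 on residuals from the group means. By the smallest p, its leading genes in males were Ace, angiotensin-converting enzyme (log2 fold change 0.70, edgeR adjusted p = 0.128), and Slc13a4, a sulphate transporter (0.87, adjusted p = 0.149), neither of which passed. The r of Ace and Slc13a4 with Ttr was 0.50 and 0.12, so that members of this list did not all follow Ttr.

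Over all genes tested, the pattern most like the mean of the 9 members' standardised levels was sought by Pearson's r over the 16 libraries. The 10 leading genes were Slc4a5, a sodium bicarbonate cotransporter of the plexus (r = 0.98, 0.0257 to 3.42 CPM), Drc7, a part of the motile cilium (0.97), 2900040C04Rik (0.97), Prr32 (0.95), Mfrp (0.95), Tmem72 (0.95), Calml4 (0.95), F5, coagulation factor V (0.94), Ecrg4, the precursor of the secreted peptide augurin (0.94), and Cldn2, a claudin of leaky tight junctions (0.94). Of these 10, 7 stood in the list of other plexus genes. None of the 10 was called for restriction in either sex, with edgeR adjusted p of 0.602 to 0.961 over both sexes.

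Markers of tissue near the plexus and of other cell types of the cortex were measured in the same libraries. The 12 markers of ependyma, the ciliated lining of the ventricles, summed to 13.4 to 35.2 CPM, and their mean log2 CPM went with Ttr at r = 0.85 (rho 0.81, adjusted permutation p = 3.85e-04). Below the gap in Ttr that r was 0.39 and above it 0.79. Of the 12, 11 were tested, and 0 rose and 0 fell in either sex, while Mia was at 0 in 5 libraries. Markers of hippocampus (12 genes, 221 to 557 CPM summed) had r = 0.50 with Ttr (adjusted permutation p = 0.173), and those of thalamus (10 genes, 84.5 to 220 CPM) r = 0.21 (0.693), neither of which passed. Markers of striatum (10 genes, 169 to 494 CPM) had r = 0.42 (0.217), which did not pass. Of 8 pineal markers, Gngt1 had no count in any library, and the list had r = -0.09 (0.753). Whether the amount of ventricular tissue in the dissected pieces set the levels of the members was not tested.

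Markers of cells that belong to the cortex and its coverings did not pass by r with Ttr either. Cortical excitatory neurons (12 genes) had r = -0.44 (adjusted permutation p = 0.217) and, by rank, rho = -0.56 (adjusted permutation p = 0.0931). Endothelium (12 genes) had r = -0.32 (0.409), meninges and vascular fibroblasts (20 genes) -0.16 (0.751), astrocytes (12 genes) -0.12 (0.753) and oligodendrocytes (12 genes) 0.10 (0.753). The endothelial r was -0.70 without the 2 libraries farthest from the median of Ttr. Below the gap in Ttr it was 0.45 and above it 0.77. For meninges and vascular fibroblasts the same values were -0.46, 0.35 and 0.54, so that the sign depended on the libraries used. Some of these lists held genes that passed the edgeR test for restriction, unlike the members. Over all genes tested 2.38% passed in males and 1.23% in females. In males 5 of 20 meningeal genes rose, Slc22a6 (log2 fold change 1.22), Foxd1 (1.07), Foxc1 (0.92), Mgp (0.79) and Fmod, and 3 of 12 endothelial genes rose, Cldn5 (0.77), Ly6c1 (0.48) and Slco1a4 (0.46). DESeq2 called all 8 of these genes, and voom did not call Fmod (adjusted p = 0.133) and Foxd1 (0.101). The summed meningeal level was 69.4 to 97.4 CPM in CTR males and 79.8 to 201 CPM in FR males, and without FR male 2 and FR male 4, which held the highest sums, none of these 5 meningeal and 3 endothelial genes was called, in a fit that called 8 of all genes in males in place of 445. In females 4 of 12 oligodendrocyte genes fell, Opalin (-0.73), Mobp (-0.66), Hapln2 (-0.48) and Mog (-0.41), and 1 of 12 cortical neuron genes, Rorb (-0.34). Each gene named as called in these and the following lists was called by DESeq2 as well, and in 5 to 12 of the 16 edgeR fits that left out 1 library. Astrocyte, hippocampal, thalamic, striatal and pineal lists had 0 genes called in either sex.

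Otx2 was compared with the same lists because it left the pattern of the other members, a choice made after its values were seen. It had r = 0.64 with the ependymal list, 0.62 with the thalamic list and 0.58 with the list of other plexus genes, each with an adjusted permutation p of 0.0580 over 11 lists. With the cortical neuron list it had r = -0.54 (adjusted permutation p = 0.0850). Without the 2 libraries farthest from the median of Otx2, r was 0.53 (ependymal), 0.52 (thalamic), 0.46 (other plexus genes) and -0.54 (cortical neurons). By rank the thalamic list was closest to Otx2, at rho = 0.75 (unadjusted permutation p = 0.00123). The ependymal list had rho = 0.58 (0.0196) and the other plexus genes 0.59 (0.0186). In FR male 2 and FR female 4, high in Otx2 and low in Ttr, the 10 thalamic markers summed to 152 and 196 CPM, while FR female 3, with 2.00 CPM of Otx2, had the highest sum, 220 CPM. The genes with the pattern most like Otx2 over the 16 libraries were Igsf1 (r = 0.89), Lhx9 (0.85), Casc1 (0.84), Shox2 (0.84) and Tunar (0.83), and none of the first 10 was in the plexus list. Lhx9 and Shox2 encode homeodomain factors that the thalamus expresses. Lhx9 is itself in the thalamic list, so that its r with Otx2 is not separate from that of the list. Whether thalamic tissue in the dissected pieces set the level of Otx2 was not tested. Shox2 ran from 0 to 10.1 CPM, and it had the third widest spread within groups of all genes tested.

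The pathways in which the members act were also followed, beside 2.38% of all genes called in males and 1.23% in females. For thyroid hormone transport and response, served by transthyretin, 1 of 16 genes rose in males and 1 in females. In males it was the thyroid hormone transporter Slco1c1 (log2 fold change 0.41, edgeR adjusted p = 0.0510). Without FR male 2 and FR male 4 Slco1c1 was not called (edgeR adjusted p = 0.587). In females it was the receptor Thra (0.27, edgeR adjusted p = 0.0647). For folate transport and one-carbon metabolism, served by Folr1, 0 of 16 genes tested were called in either sex, and for secretion of CSF and ion transport 0 of 19 were. For klotho and FGF signalling 0 of 11 genes tested were called in males and 1 rose in females, the receptor Fgfr1 (0.38, edgeR adjusted p = 0.0891). For BMP and Wnt ligands and receptors, the signals that Sostdc1 antagonises, 0 of 18 were called in males and 1 fell in females, the receptor Lrp4 (-0.43, edgeR adjusted p = 0.0533). Thra was at 761 ± 38.3 CPM in CTR females and 918 ± 44.2 CPM in FR females (SD, n = 4). The r of these called genes with Ttr was -0.19 for Slco1c1, 0.09 for Thra, 0.18 for Fgfr1 and -0.05 for Lrp4.

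Neighbouring genes on the chromosome were measured beside the members. Of 8 neighbours 5 passed the filter on low counts, and their ratio of the highest to the lowest library was 1.21 for Gigyf2, 1.32 for Rcan1, 1.33 for B4galt6, 1.58 for Smim11 and 2.05 for Dsg2. B4galt6 and Dsg2 flank Ttr, at 110 to 146 CPM and 1.62 to 3.31 CPM, beside 1.34 to 811 CPM for Ttr. Rcan1 rose in FR males (log2 fold change 0.23, edgeR adjusted p = 0.0874), and the 4 other tested neighbours did not pass in either sex. Without FR male 2 and FR male 4 Rcan1 was not called (edgeR adjusted p = 0.672). Folr2, beside Folr1, varied more, from 0.0243 to 0.412 CPM, but reached at most 14 counts in a library. Otx2os1 and Kcne1 had libraries at 0 and reached at most 14 and 4 counts, and none of these 3 genes was tested.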

How the data were processed

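Poly(A) RNA of V1 was sequenced by the submitters from 16 mice. The tables deposited by the authors hold whole-number counts for each gene, neither normalised nor filtered. Per the file headers, featureCounts 2.0.1 was run without a strand option over Ensembl release 103 exons of GRCm39. Alignment was by STAR (2.7.1a according to the submitters' processing notes). Older versions of these tools are named in the paper.

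Symbols were attached to 97.0% of the 53700 IDs. Groups were taken from the sample labels. With edgeR 4.0.16 in R 4.3.3, genes were kept by filterByExpr, libraries were scaled by TMM, and 1 model with a coefficient per group was fitted to 16 libraries. The quasi-likelihood F-test was used with Benjamini-Hochberg adjustment and a threshold of 0.1. Log2 CPM values had a prior count of 2. Alternatives were DESeq2 1.42.0, limma 3.58.1 (voom with quality weights), other filters, scalings and thresholds, fits of 1 sex, and each library left out in turn. Scripts were tested on simulated data, drawn with the spread usual for genes of each level. For Ttr that spread, as edgeR's coefficient of variation between mice, was 0.092, against 1.38 fitted to its own counts. The simulation thus does not show how well changes in the members could be detected. Totals of 33110029 to 41702296 counts set the counting error, which the standard errors hold together with the spread between mice.

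The members and all 18 gene lists were chosen with earlier results of these data known. Named were the members, up to 4 genes of each list with the smallest p for restriction, the chromosomal neighbours and the 10 genes most like the members. Other genes were named after their values were seen: the widest spreads, Fmod, which makes the fifth called meningeal gene, and the genes most like Otx2. Shared numbers of a male and a female were checked as pairs, with residual correlations of -0.30 to 0.12, and were not used as pairs.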

Additional observations from a re-analysis of the deposited data

Results flagged for a closer look

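In FR females, 1 mouse lay far from the other 3 for 2 of the 9 genes. For Aqp1 the gap between FR female 2 and the next mouse made up 0.953 of the range of the group in log2 CPM, and for Sostdc1 the gap made up 0.843 of it. Both exceed the critical value of Dixon's test for 4 samples. In all 36 gene by group sets were examined, of which chance flags about 1 in 20, or 1.8 sets. FR female 2 was also the library with the highest Ttr, and it was among the 4 libraries with over 4% of counts in the chromosome 17 ID. The part of either in these values was not tested.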

How the results depend on the processing

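None of the members tested was called in any alternative that could be run. With at least 10 counts in every sample 4 of the 9 (Ttr, Kl, Aqp1 and Sostdc1) were tested, fits of 1 sex and the exact permutation test covered FR against CTR, and the replicate block covered the interaction and the comparisons between the sexes. All 8 members kept an r with Ttr that passed, also with total counts in place of TMM and without each library in turn. The median SD within groups was 2.01 with a prior count of 2, 2.08 with 0.5 and 2.02 with total counts. Directions were less firm. With limma voom and sample quality weights the change of FR over CTR females was above 0 for Ttr (0.90), Kl (0.33), Folr1 (0.041), Clic6 (0.40), Aqp1 (0.14), Kcnj13 (0.49) and Sostdc1 (0.46), and the interaction of Kl was -0.29. Without the 4 libraries high in the chromosome 17 ID, a choice made after seeing the data, Otx2 in males was at -0.066 and the median of the interaction moved from 1.51 to 3.52. The causes were not tested.

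With each library left out in turn, the median of the 9 genes ran from -0.06 to 1.32 in males, -2.41 to -0.07 in females, 0.73 to 3.03 for the interaction, -1.81 to -0.57 between the sexes in CTR and -0.57 to 1.63 between the sexes in FR. In males the change of Ttr ran from -0.028 to 1.83, Kl from -0.43 to 0.36, Folr1 from -0.056 to 1.41, Clic6 from -0.040 to 1.32, Aqp1 from -0.085 to 1.14, Otx2 from -0.070 to 1.07, Sostdc1 from -0.13 to 0.74 and Kcne2 from -0.10 to 1.87. In females Kl ran from -0.89 to 0.072, Sostdc1 from -1.04 to 0.22 and Kcne2 from -4.99 to 0.28. In the interaction Kl ran from -0.011 to 0.96, Otx2 from -0.91 to 0.31 and Sostdc1 from -0.027 to 1.54. The other changes kept their sign.

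The replicate numbers shared by a male and a female were tried as a replicate block, although 1 of 8 libraries correlated best with its own number. With the block the median of the interaction was 1.60, Ttr was at 3.08, and 0 members were called. Over all genes the block took the calls from 449 to 13 between the sexes in CTR and from 324 to 21 in FR. No paired analysis was possible for FR against CTR because the numbers do not cross the diet.

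The share of all genes called depended on the tool. Where edgeR called 445 genes in males, DESeq2 called 1142 and edgeR with only the males called 3. Where it called 229 in females, DESeq2 called 595, voom 856 and edgeR with only the females 144. Between the sexes DESeq2 and voom called 1022 and 2458 in CTR and 653 and 169 in FR. At an adjusted p of 0.05 edgeR called 57 in males, 79 in females, 94 in CTR and 156 in FR. With each library left out, the edgeR calls ran from 6 (without FR male 2) to 1837 (without FR male 1) in males, 52 to 294 in females, 58 to 660 between the sexes in CTR and 91 to 587 in FR. Depth limits Kcne2, Otx2, Folr1 and Kcnj13, which had libraries at or under 3 counts.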
